A study of Sus scrofa domesticus with 9 samples.

Results

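The genes described here are 8 chemokines that attract neutrophils and lymphocytes: CXCL8, CXCL9, CXCL10, CXCL11, CXCL12, CXCL14, CXCL16 and CCL19. They were picked by name for their function, and 7 of the 8 were found among the 16223 genes of the deposited tables. Counts per library existed for 5 of them, CXCL8, CXCL9, CXCL10, CXCL12 and CCL19, within a table of 1054 genes that the authors had already selected for a difference between the groups. CXCL11 and CXCL14 were found only in the table of all genes, and CXCL16 was not analysed here. Several of these chemokines are named in the study itself, so a difference between the same livers is not independent evidence.

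Liver RNA was sequenced from 9 preterm Yorkshire piglets on day of life 15. All were delivered early by caesarean section, carried a central venous catheter and began on parenteral nutrition (PN), the intravenous supply of nutrients. The 3 bottle-fed piglets were moved to sow milk replacer in their first days. The 6 PN piglets stayed on PN with a soybean oil lipid emulsion until the end and also received a daily orogastric dose of medium chain triglyceride vehicle. The bottle-fed and PN piglets came from separate litters and sows, so that litter, feeding and vehicle cannot be told apart in any difference below. The study left 1 PN liver out as an outlier. It was taken here to be PN 5, as read from the clustering picture and not from the text, and the values below are compared first in the 8 other livers and then in all 9.

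Chemokines are small secreted proteins that guide leukocytes along a gradient by binding G protein-coupled receptors on their surface. CXCL8 binds CXCR1 and CXCR2 and draws neutrophils. CXCL9, CXCL10 and CXCL11 share the receptor CXCR3 on activated T cells and natural killer cells and are classical targets of interferon-gamma. CXCL12 is made by stromal and endothelial cells and holds or recruits CXCR4-bearing cells, and CCL19 binds CCR7 on naive T cells and mature dendritic cells. In mammals many of these genes carry binding sites for NF-kB, for the interferon-activated factors that bind the interferon-stimulated response element (ISRE), or for AP-1 close to their start.

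CXCL8, CXCL9, CXCL10 and CXCL11 all lie on pig chromosome 8 in the Sscrofa11.1 assembly. CXCL9, CXCL10 and CXCL11 stand side by side on the minus strand, with 23404 bases between CXCL9 and CXCL10 and 17841 between CXCL10 and CXCL11, while CXCL8 lies 1729679 bases away from CXCL9 on the plus strand. CXCL10 and CXCL11 sit inside the span of ART3, which runs on the opposite strand. The sources do not say whether counting used strand, and the authors' mean normalized count of ART3 was 11.3, against 2247 for CXCL10. CXCL12 lies on chromosome 14 and CCL19 on chromosome 10.

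The sequence upstream of the 3 genes with the largest differences is shown because it carries the motifs named above. Each run holds the 190 bases from 250 to 61 before the start of the curated RefSeq transcript, 5′ to 3′ on the strand of the gene, and capitals mark matches to a motif on either strand. The windows are chr8:69932396-69932585 (plus strand) for CXCL8, chr8:71670297-71670486 (minus strand) for CXCL9 and chr8:71696009-71696198 (minus strand) for CXCL10.
CXCL8: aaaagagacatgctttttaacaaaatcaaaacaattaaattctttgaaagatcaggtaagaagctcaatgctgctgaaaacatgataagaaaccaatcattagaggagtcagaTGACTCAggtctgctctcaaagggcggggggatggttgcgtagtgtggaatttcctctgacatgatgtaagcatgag
CXCL9: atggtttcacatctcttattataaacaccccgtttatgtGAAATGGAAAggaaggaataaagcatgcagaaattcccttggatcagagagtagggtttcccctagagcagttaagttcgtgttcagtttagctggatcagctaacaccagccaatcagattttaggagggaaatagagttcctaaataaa
CXCL10: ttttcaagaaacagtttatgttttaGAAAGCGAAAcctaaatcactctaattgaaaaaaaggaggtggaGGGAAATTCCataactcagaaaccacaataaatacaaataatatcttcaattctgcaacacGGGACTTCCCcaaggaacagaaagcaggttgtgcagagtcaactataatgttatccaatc

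The CXCL10 window held an ISRE match (TTTC, any 2 bases and TTTC, read on the other strand as GAAAGCGAAA) from 225 to 216 bases before the start and a pair of NF-kB matches, from 181 to 172 and from 120 to 111. The CXCL9 window held an ISRE match from 211 to 202 and no NF-kB match, and the CXCL8 window held an AP-1 match (TGANTCA) from 137 to 131. Over the full 250 bases, an ISRE match was found in 3 of the 8 chemokines (CXCL9, CXCL10 and CCL19), an NF-kB match in 3 (CXCL10, CXCL11 and CXCL16) and an AP-1 match in 3 (CXCL8, CXCL11 and CXCL14). Of 19556 windows of the same length before protein-coding genes, 3.07% held an ISRE match, 5.84% an NF-kB match and 5.23% an AP-1 match. No match was found in the CXCL12 window. A match is only a run of letters, and the binding of a factor was not measured. The NF-kB pattern was GGGRNWYYCC (R is A or G, W is A or T, Y is C or T, N is any base). A run that departs from it, such as tggaatttcc in the CXCL8 window, was not marked. The lack of a match therefore does not show that a gene has no site.

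Values per liver are normalized counts, which are the raw read counts divided by 1 size factor per library. For each gene the group means of log2(normalized count + 1) were compared with a two-sided exact permutation test, and p was adjusted over the 1054 genes. Those genes had already been selected for a difference between the groups, so the adjusted p does not correct for that selection. It is no error rate over all 16223 genes. With 56 ways to split 8 livers the smallest possible p is 0.0179, and with 84 ways to split 9 livers it is 0.0119. These transcripts come from whole liver, in which more cells of a type and more RNA per cell cannot be told apart. The library totals implied by the FPKM values ran from 17106838 to 24025142.

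Among the 5 chemokines with counts per library, CXCL8, CXCL9 and CXCL10 rose with PN, CXCL12 fell, and CCL19 did not pass the test. The groups did not overlap for 4 of the 5, with 3 higher and 1 lower in every PN liver. Over the 1054 genes of this preselected table, 43.5% were higher without overlap and 41.6% were lower, and 42.2% and 41.5% had an unadjusted exact permutation p under 0.05 in those directions. A count of this kind is therefore no result about the chemokines, and the values below serve to show how far and how evenly each one moved.

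CXCL8, the neutrophil attractant also known as interleukin-8, was close to absent in bottle-fed livers. Its normalized counts were 3.27, 3.46 and 3.12 in bottle-fed 1, 2 and 3, and 36.1, 79.3, 143, 27.8 and 83.4 in PN 1, 2, 3, 4 and 6. PN 5 stood at 99.8, within the range of the other PN livers. Every PN liver was far above every bottle-fed liver. The bottle-fed values were close together, but with 3 or 4 reads each they cannot show how alike those livers were. The mean was 3.28 ± 0.167 (SD, n = 3) in bottle-fed and 74.0 ± 46.1 (SD, n = 5) in PN livers, a ratio of 22.5. The bottle-fed mean rests on 10 reads in all (4, 3 and 3), so counting error alone allows a ratio from 12.2 to 47.0 (95% Poisson interval of those reads). On the log2 scale the difference was 3.89 (exact permutation p = 0.0179, adjusted p = 0.0260), and over all 9 livers it was 4.00 (exact permutation p = 0.0119). Both p-values are the smallest that the design allows. Leaving out any of the 8 livers left the difference between 3.60 and 4.18, with p under 0.05 each time.

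CXCL9, an interferon-gamma-induced ligand of CXCR3, was low in bottle-fed livers and very uneven under PN. Its normalized counts were 10.6, 16.1 and 27.1 in bottle-fed 1, 2 and 3, and 96.6, 566, 200.1, 119.5 and 34.3 in PN 1, 2, 3, 4 and 6. PN 5 had the highest count of all, 1297. No PN liver fell into the bottle-fed range, but PN 6 stood just above bottle-fed 3. The means were 17.9 ± 8.37 (SD, n = 3) and 203 ± 211 (SD, n = 5), a ratio of 11.3, and among the 6 PN livers the highest value was 37.8 times the lowest. The log2 difference was 2.94 (exact permutation p = 0.0357, adjusted p = 0.0427) and 3.48 over all 9 livers (exact permutation p = 0.0357). Without 1 liver it ran from 2.43 to 3.43, and p stayed under 0.05 in 2 of the 8 cases, without PN 6 and without bottle-fed 3. It was 0.0571 without PN 1, 2, 3 or 4 and 0.0952 without bottle-fed 1 or 2, where the smallest exact permutation p possible is 0.0286 or 0.0476.

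CXCL10, the most abundant of the CXCR3 ligands here, had the widest absolute change. Its normalized counts were 204, 231 and 205 in bottle-fed 1, 2 and 3, and 682, 3012, 9028, 1963 and 1309 in PN 1, 2, 3, 4 and 6. PN 5 reached 16329. The bottle-fed livers were almost equal, whereas PN 3 held more than the other kept PN livers together and the lowest, PN 1, was still clear of the bottle-fed range. The means were 213 ± 15.1 (SD, n = 3) and 3199 ± 3371 (SD, n = 5), a ratio of 15.0. The log2 difference was 3.34 (exact permutation p = 0.0179, adjusted p = 0.0260) and 3.83 over all 9 livers (exact permutation p = 0.0238). It was 2.83 without PN 3 and 3.76 without PN 1, and the exact permutation p was 0.0571 without PN 2, PN 4 or PN 6 and under 0.05 without any of the other 5 livers.

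**Figure D1:**
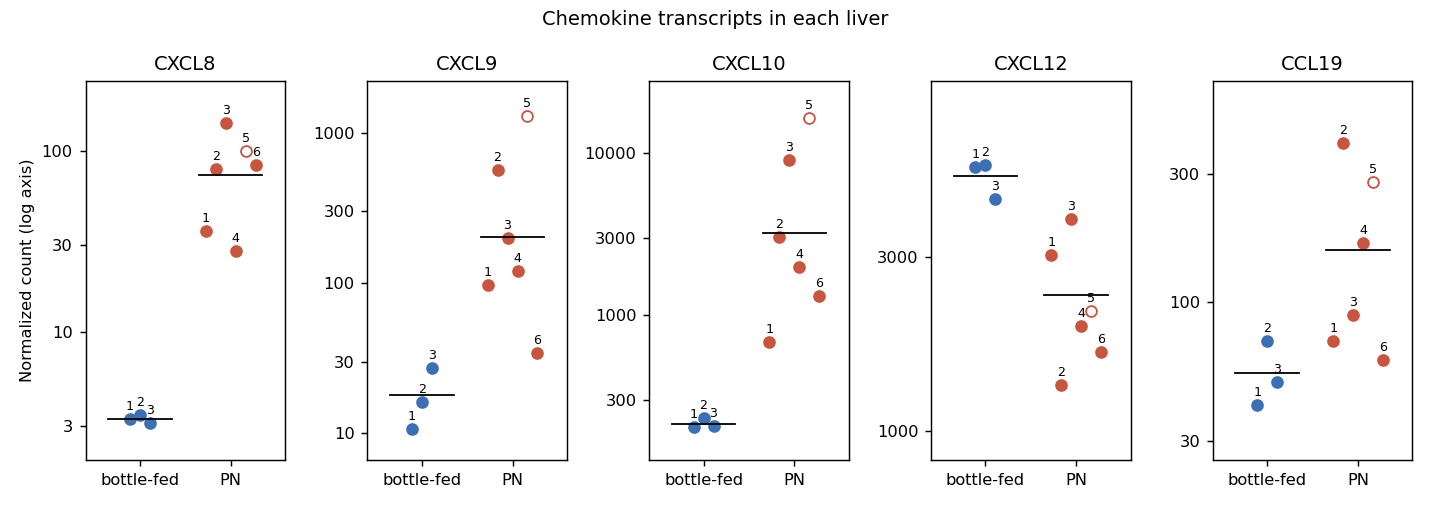
Normalized count of each chemokine in each liver on a log axis, with a separate axis for each gene. Blue points are bottle-fed and red points PN livers, labelled by replicate number, the open circle is PN 5, and black lines are the means of 3 bottle-fed and 5 PN livers without PN 5. CXCL8, CXCL9 and CXCL10 lie higher and CXCL12 lower in every PN liver, while the CCL19 groups overlap.

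CXCL11, the third CXCR3 ligand, and CXCL14, a chemokine of epithelia that attracts dendritic and natural killer cells, have no counts per library in the tables used here, so no comparison between the groups was made. The authors' mean normalized count was 64.6 for CXCL11 and 123 for CXCL14, above that of 32.3% and 40.8% of the 16223 genes. The mean of CXCL10 in the same table exceeded that of 93.0% of genes. Which libraries these means cover is not stated. Of 1037 genes found in both tables, 42 had a mean above their normalized count in every one of the 9 livers, so the means are not on the scale of the values per liver and were not set beside them.

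CXCL12, the homeostatic ligand of CXCR4, moved the other way. Its normalized counts were 5283, 5341 and 4314 in bottle-fed 1, 2 and 3, and 3038, 1333, 3816, 1944 and 1642 in PN 1, 2, 3, 4 and 6. PN 5 stood at 2134, in the middle of the PN livers. Every PN liver was below every bottle-fed liver, with PN 3 the nearest to them. The means were 4979 ± 577 (SD, n = 3) and 2355 ± 1039 (SD, n = 5), a ratio of 0.473. The log2 difference was -1.18 (exact permutation p = 0.0357, adjusted p = 0.0427) and -1.19 over all 9 livers (exact permutation p = 0.0238). Without 1 liver it ran from -1.39 to -1.01, and the exact permutation p was 0.0571 or 0.0952 each time, so that the call rests on having all 8 livers.

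CCL19, the CCR7 ligand that gathers naive T cells and dendritic cells, did not separate the groups. Its normalized counts were 40.9, 71.5 and 49.99 in bottle-fed 1, 2 and 3, and 71.2, 394, 89.5, 166 and 60.5 in PN 1, 2, 3, 4 and 6. PN 5 stood at 279.5. PN 1 and PN 6 lay inside the bottle-fed range, and PN 2 was far above the other kept livers. The means were 54.1 ± 15.7 (SD, n = 3) and 156 ± 139 (SD, n = 5), a ratio of 2.89. The log2 difference was 1.18 (exact permutation p = 0.143, adjusted p = 0.144) and 1.38 over all 9 livers (exact permutation p = 0.0833). It was 0.75 without PN 2. The call depended on the test: edgeR's quasi-likelihood test gave a log2 fold change of 1.53 with an adjusted p of 0.0235, and DESeq2 gave 1.17 with an adjusted p of 0.0455, both on the same 8 livers and with a spread estimated from genes preselected for a difference. DESeq2 also took its size factors from those genes alone, whereas edgeR used the library totals implied by FPKM, so these fits differ in normalization too. Of the 1054 genes edgeR called 99.7% and DESeq2 93.5% in either direction, so nothing is read from such a call.

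Levels of different genes were compared as FPKM, the authors' counts scaled by gene length and library total. In bottle-fed livers the mean FPKM was 21.5 for CXCL12, 7.53 for CXCL10, 3.37 for CCL19, 0.360 for CXCL9 and 0.0870 for CXCL8. The lowest CXCL12 value (18.6) was above the highest CXCL10 value (8.14), and the lowest CXCL10 value (7.21) was above the highest CCL19 value (4.45). The orders of CCL19, CXCL9 and CXCL8 in these 3 livers were likewise free of overlap. In the 5 kept PN livers the mean FPKM was 113 for CXCL10, 10.1 for CXCL12, 9.70 for CCL19, 4.06 for CXCL9 and 1.95 for CXCL8. CXCL10 ranged from 24.1 to 317 and stayed above the highest value of CXCL12 (16.4). The other neighbours in this order overlapped, CXCL12 (5.74 to 16.4) with CCL19 (3.75 to 24.5), CCL19 with CXCL9 (0.684 to 11.3), and CXCL9 with CXCL8 (0.734 to 3.78).

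CXCL12 and CXCL10 thus changed places in FPKM, which rests on gene lengths of 11743 for CXCL12 and 1437 for CXCL10. In normalized counts, which are not scaled by length, CXCL12 stayed above CXCL10 in PN 1 (3038 against 682) and PN 6 (1642 against 1309). It was below CXCL10 in PN 2, 3, 4 and 5, though barely in PN 4 (1944 against 1963). The FPKM of CXCL12 was 3.18, 2.84 and 2.57 times that of CXCL10 in bottle-fed 1, 2 and 3. The FPKM of CXCL10 was 1.83, 18.5, 19.3, 8.25 and 6.51 times that of CXCL12 in PN 1, 2, 3, 4 and 6, and 62.5 times in PN 5. This pair was singled out after the values had been seen. The FPKM ratio of CXCL10 to CXCL9, by contrast, had no common direction: it was 33.7, 25.2 and 13.3 in bottle-fed 1, 2 and 3 and 12.4, 9.37, 79.5, 28.9 and 67.3 in PN 1, 2, 3, 4 and 6, so that the groups overlapped.

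**Figure D2:**
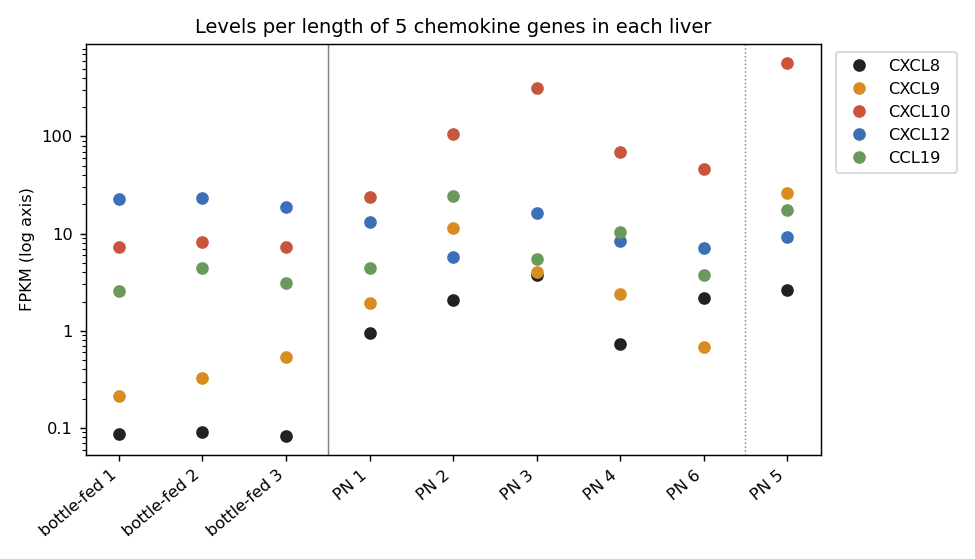
FPKM of 5 chemokine genes in each of the 9 livers, on a log axis. The solid line parts bottle-fed from PN livers and the dotted line sets PN 5 apart. CXCL12 is the highest of the 5 in every bottle-fed liver and CXCL10 in every PN liver.

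The PN livers did not rank alike for every chemokine. CXCL8 was highest in PN 3 and lowest in PN 4, CXCL9 was highest in PN 5 and lowest in PN 6, CXCL10 was highest in PN 5 and lowest in PN 1, and CCL19 was highest in PN 2 and lowest in PN 6. CXCL12 was highest in PN 3 and lowest in PN 2. The 10 pairs among the 5 chemokines were compared over the 6 PN livers on the log2(normalized count + 1) scale, and none had an adjusted exact permutation p under 0.05 (smallest 0.347 for Pearson's r and 0.167 for Spearman's rho). At an unadjusted p under 0.05 there was 1 pair by Pearson's r and 2 by Spearman's rho.

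The highest correlation was that of CXCL9 with CCL19, with r = 0.852 (exact permutation p = 0.0347, adjusted p = 0.347) and rho = 0.886 (exact permutation p = 0.0333, adjusted p = 0.167) over 6 livers. Without PN 5 and PN 6, the livers farthest from the median of CXCL9, r was 0.821. CXCL9 and CXCL10, the neighbours on chromosome 8, had r = 0.763 (exact permutation p = 0.0806, adjusted p = 0.403) and rho = 0.886 (exact permutation p = 0.0333, adjusted p = 0.167), and r fell to 0.497 without the same livers. CXCL8 and CXCL10 had r = 0.700 (exact permutation p = 0.126, adjusted p = 0.421) and rho = 0.657 (exact permutation p = 0.175, adjusted p = 0.438), with r = 0.630 without PN 4 and PN 1. CXCL12 had no clear relation with CXCL8, CXCL9 or CXCL10 over the 6 PN livers (r from -0.0945 to 0.159), and leaving out the pair of livers farthest from the median swung r to 0.993, -0.613 and -0.890. With CCL19 r was -0.524 (exact permutation p = 0.290, adjusted p = 0.611; rho = -0.314, exact permutation p = 0.564, adjusted p = 0.806), which shrank to -0.0633 without PN 3 and PN 2.

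**Figure D3:**
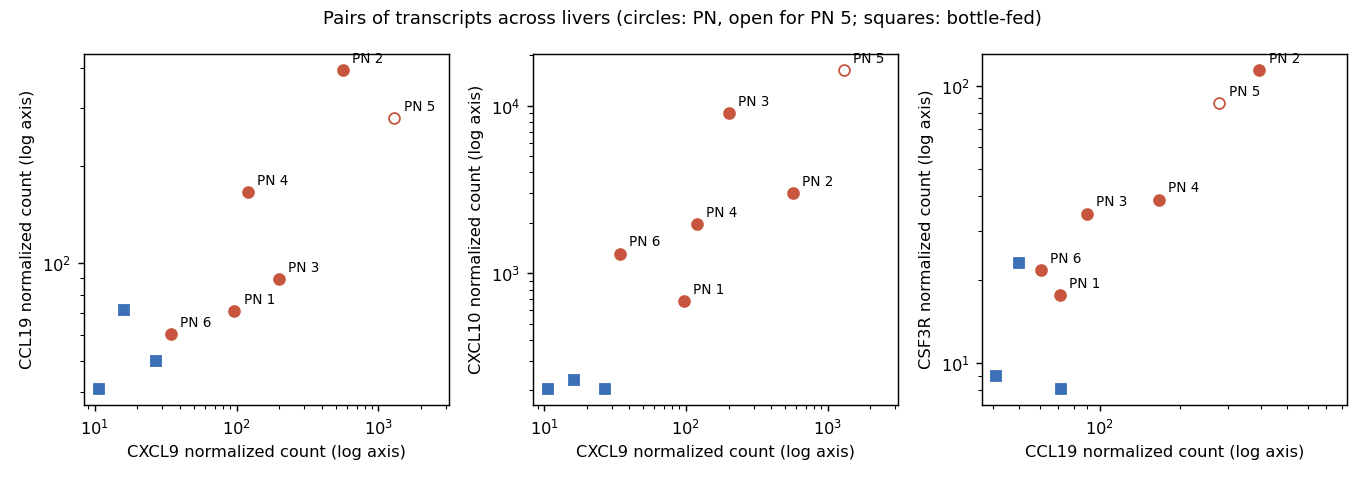
Normalized counts of CXCL9 against CCL19 (left), CXCL9 against CXCL10 (middle) and CCL19 against CSF3R (right) in each liver, all on log axes. Circles are PN livers, open for PN 5, and squares are bottle-fed livers. PN 2 and PN 5 are highest for CXCL9, CCL19 and CSF3R, whereas CXCL10 is highest in PN 5 and PN 3.

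For each chemokine the genes most like it over the 6 PN livers were sought among 609 genes of the same table with a symbol and a mean of at least 50 normalized counts. These are descriptions over 6 libraries, with no test, and the highest of 609 correlations over 6 livers can be high by chance. CXCL10 was followed most closely by TAP1 (r = 0.996), the antigen peptide transporter, which ran from 307 to 3259.8 in PN livers and from 186 to 236 in bottle-fed livers. Next came a gene listed as BIRC2 (r = 0.982), an inhibitor of apoptosis, to whose identifier the reference name table gives the symbol BIRC3. After it came NFKBIE (r = 0.977), an inhibitor of NF-kB. CXCL9 was followed by MFSD6 (r = 0.980), CYTH4 (r = 0.925) and IFNGR2 (r = 0.915), a chain of the interferon-gamma receptor.

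CXCL8 was followed by IRF9 (r = 0.940), the DNA-binding part of an interferon-activated complex, by MAP3K8 (r = 0.890), a kinase of inflammatory signalling, and by RDH13 (r = 0.875). CCL19 was followed by CSF3R (r = 0.966), the receptor for granulocyte colony-stimulating factor carried by neutrophils, UNC5CL (r = 0.939) and EGLN3 (r = 0.937). CXCL12 was followed by RFLNA (r = 0.950), SNED1 (r = 0.945) and TMEM53 (r = 0.885). A gene that tracked a chemokine among PN livers could still differ from bottle-fed livers in the other direction. RFLNA was higher in every PN liver (111 to 236) than in every bottle-fed liver (0 to 15.5), whereas CXCL12 was lower. RDH13 was lower in every PN liver (113 to 253) than in every bottle-fed liver (309 to 416), whereas CXCL8 was higher.

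Among 30 other chemokines listed, counts per library existed for 1. CCL4, which attracts monocytes and T cells, had 40.1, 86.5 and 79.2 normalized counts in bottle-fed 1, 2 and 3 and 124, 77.6, 361, 119.5 and 233 in PN 1, 2, 3, 4 and 6. PN 2 lay within the bottle-fed range, and the log2 difference was 1.26 (exact permutation p = 0.0893, adjusted p = 0.0925). As for CCL19 the call depended on the test, since edgeR's quasi-likelihood test gave 1.41 with an adjusted p of 0.0155. For the receptors, 2 of 22 had counts per library. XCR1, the receptor for XCL1 on cross-presenting dendritic cells, fell by 1.84 on the log2 scale (exact permutation p = 0.0179, adjusted p = 0.0260), from 27.0, 41.5 and 43.7 in bottle-fed 1, 2 and 3 to 8.78, 16.9, 11.5, 5.56 and 7.995 in PN 1, 2, 3, 4 and 6. CCR1, a receptor of monocytes and granulocytes, had a log2 difference of 1.07 with overlapping groups (exact permutation p = 0.107, adjusted p = 0.1099), against 1.21 with an adjusted p of 0.0119 by edgeR. CXCR4 and CCR7, the receptors of CXCL12 and CCL19, and ACKR3, a scavenger of CXCL12, were not compared between the groups, and the authors' mean normalized counts for them were 73.3, 13.9 and 145. None of the 6 listed enzymes that cut or shed chemokines had counts per library. DPP4, which trims CXCL9, CXCL10, CXCL11 and CXCL12 at their amino terminus, had an authors' mean of 4222.

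Of 10 listed subunits and inhibitors of NF-kB, 5 had counts per library under their own symbol and 4 of these rose. Since 42.2% of the 1054 genes passed as higher, nothing is read from that count, and BIRC3, also listed, was not counted because the table holds its identifier as BIRC2. RELB, a subunit of the noncanonical pathway, had 59.7, 93.4 and 69.8 normalized counts in bottle-fed 1, 2 and 3 and 180.5, 389.8, 539.6, 260.4 and 299 in PN 1, 2, 3, 4 and 6. NFKB2, its partner, TNFAIP3, a feedback inhibitor, and NFKBIA, which holds NF-kB in the cytoplasm, were likewise higher in every PN liver. Log2 differences were 2.08 for RELB, 1.64 for NFKB2, 1.69 for TNFAIP3 and 1.17 for NFKBIA (each with an exact permutation p of 0.0179 and an adjusted p of 0.0260). NFKBIE, which tracked CXCL10 among PN livers, had 0.91 with overlapping groups (exact permutation p = 0.0893, adjusted p = 0.0925). For NFKBIE edgeR gave 1.00 with an adjusted p of 0.0240. DESeq2, with size factors from the preselected genes, gave 0.65 with an adjusted p of 0.106.

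Of 12 listed genes of interferon-gamma signalling, 2 had counts per library. IFNGR2 rose from 706, 637 and 866 in bottle-fed 1, 2 and 3 to 1869, 2411, 2307, 2259.9 and 1381 in PN 1, 2, 3, 4 and 6, a log2 difference of 1.46 (exact permutation p = 0.0179, adjusted p = 0.0260). IDO1, an interferon-induced enzyme of tryptophan breakdown, was at 0 in 2 of the bottle-fed livers and at 2.31 in bottle-fed 2, and ran from 1.14 in PN 6 to 36.3 in PN 2, with groups that overlapped. The log2 difference was 2.499 (exact permutation p = 0.0536, adjusted p = 0.0583), and over all 9 livers it was 2.66 (exact permutation p = 0.0476). For IDO1 edgeR gave 3.94 with an adjusted p of 0.0143.

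**Figure D4:**
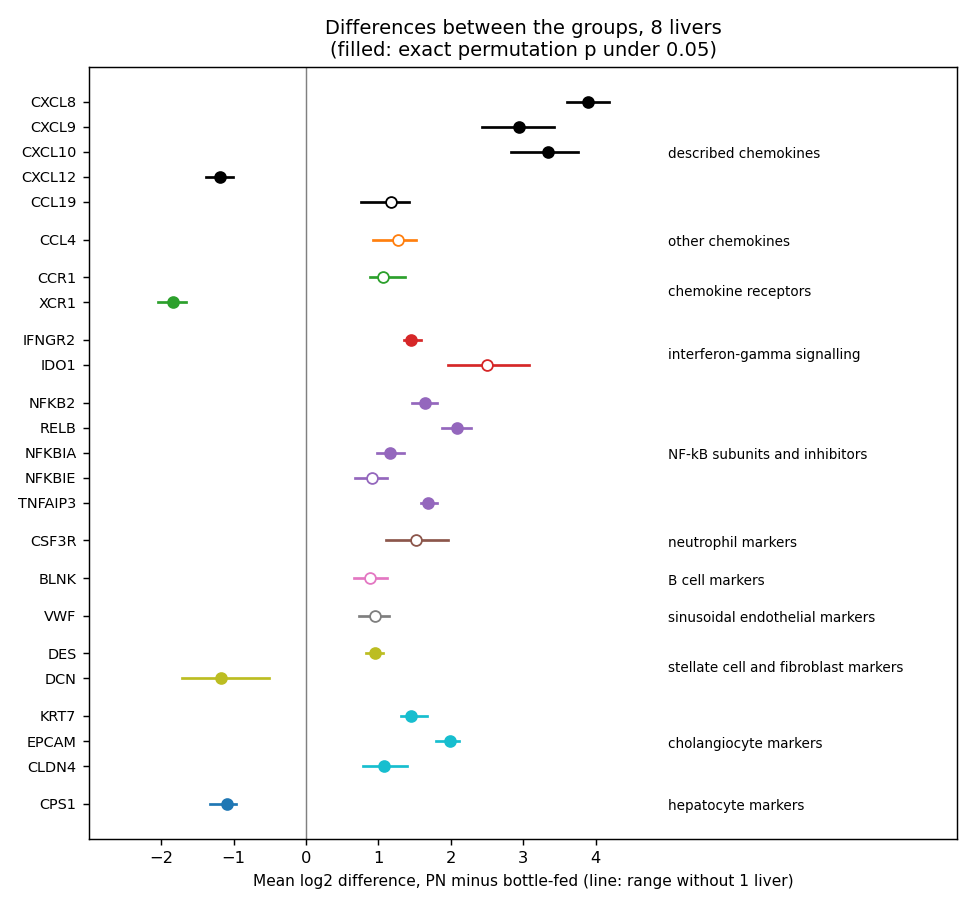
Mean difference of log2(normalized count + 1) between 5 PN and 3 bottle-fed livers for the 5 chemokines and for the listed genes with counts per library that are reported here. Points are filled where the exact permutation p was under 0.05, and lines span the values found when each liver was left out in turn. CXCL8, CXCL10 and CXCL9 lie farthest to the right, from 2.94 to 3.89, and XCR1, CXCL12, DCN and CPS1 lie left of 0.

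Markers of the cells that make or follow these chemokines were set beside them where counts per library existed. Of 14 neutrophil markers CSF3R had them, with 8.99, 8.07 and 22.9 normalized counts in bottle-fed 1, 2 and 3 and 17.6, 113.9, 34.6, 38.9 and 21.7 in PN 1, 2, 3, 4 and 6. The groups overlapped, and the log2 difference was 1.51 (exact permutation p = 0.0714, adjusted p = 0.0754). By edgeR it was 1.76 with an adjusted p of 0.0249. In the authors' means the granule genes S100A8 (10.48), MPO (12.3) and LTF (6.04) were low. None of 15 T cell, 12 natural killer cell and 13 macrophage markers had counts per library, and of 8 B cell markers BLNK did, with a log2 difference of 0.88 (exact permutation p = 0.0714, adjusted p = 0.0754). By edgeR that of BLNK was 0.93 with an adjusted p of 0.0444. By DESeq2, with size factors from the preselected genes, it was 0.59 with an adjusted p of 0.165.

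Stellate cells and sinusoidal endothelium are sources of CXCL12 in liver. Of 12 listed stellate cell and fibroblast markers 2 had counts per library, DES and DCN. Of 10 genes listed as sinusoidal endothelial markers 1 did, VWF, which is not particular to the sinusoids. DES, a stellate cell marker, was higher in every kept PN liver (442 to 565 against 214 to 301, log2 difference 0.95, exact permutation p = 0.0179, adjusted p = 0.0260), and PN 5 stood at 829.6. DCN, a fibroblast marker, fell by 1.18 (exact permutation p = 0.0357, adjusted p = 0.0427), but bottle-fed 1 alone stood at 673 and without it the difference was -0.52. The endothelial marker VWF was also higher in every kept PN liver (392 to 1208 against 275 to 385), in a table where 43.5% of genes were higher without overlap. Its log2 difference was 0.95 (exact permutation p = 0.0536, adjusted p = 0.0583), and 0.94 over all 9 livers (exact permutation p = 0.0357). By edgeR it was 1.03 with an adjusted p of 0.0117. All 3 cholangiocyte markers with counts (EPCAM, KRT7 and CLDN4, of 8 listed) rose, by 1.98 for EPCAM, 1.45 for KRT7 and 1.08 for CLDN4 on the log2 scale (each with an exact permutation p of 0.0179 and an adjusted p of 0.0260), in a table where 42.2% of genes passed as higher. The hepatocyte marker CPS1 fell by 1.09 (exact permutation p = 0.0357, adjusted p = 0.0427). Over all 9 livers the CPS1 difference was -1.46 and lost the call (exact permutation p = 0.0714). The authors' means of the listed hepatocyte markers were uneven, with TTR at 49451.5 and APOB at 77154.7 but HNF4A at 3927 and SERPINA1 at 28.9. These means do not compare the groups. The part of these cell types in the chemokine differences was not tested.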

How the data were processed

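The authors filtered reads on quality, aligned them to Sscrofa11.1 (HISAT2 2.0.5) and counted them per gene (featureCounts 2.0.3), according to the paper and the submitters' processing notes. The authors' raw counts are deposited for 1054 genes called with DESeq2, of which the notes name version 1.26.0 and the paper another. The normalized signal values are the authors' counts divided by 1 size factor per library. The FPKM values, as deposited, scale the counts by gene length and a library total. Divided by the size factors, these totals are nearly constant (19643278 to 19802826), so they may be scaled totals and not plain read totals. CPM gave nearly the same values. The 1054 genes took 6.48% to 9.37% of the library totals. The mean signal of 16223 genes, as deposited by the authors, has no stated libraries. Both tables also hold the authors' fold changes and p-values, which were not used. The planned count of calls in the table of all genes was therefore not made, nor were genes without counts per library named by their p.

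Members and gene lists were chosen with earlier results of these data known. Named genes are the members, every listed gene with counts per library, and the 3 genes most correlated with each member over 6 PN livers. Some listed genes were left out of the lists and are not reported here. Authors' means named for other listed genes were chosen after their values were seen. Groups come from the treatment labels. Replicates are separate piglets. No pair of libraries was a repeat deposit (chi-square of at least 71.8 per degree of freedom in 36 pairs). log2(normalized count + 1) was compared with a two-sided exact permutation test, Benjamini-Hochberg adjusted over the 1054 preselected genes only. Alternatives were all 9 livers, each liver left out, pseudocounts of 0.5 and 5, CPM, TMM, edgeR with and without its filter on low counts, DESeq2 and a replicate block, with all 9 livers, edgeR and DESeq2 for the listed genes added after seeing the data. The tests were first tried on simulated data. Gene names came from the table and, for 12506 of 16223 IDs, from RefSeq-based names, and promoter windows from the RefSeq annotation of Sscrofa11.1. Software was R 4.3.3 (DESeq2 1.42.0, edgeR 4.0.16) and Python 3.11.15 (scipy 1.17.1, pandas 2.3.3, matplotlib 3.10.9, numpy 2.4.6).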

Additional observations from a re-analysis of the deposited data

Results flagged for a closer look

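In 48 groups of 5 or 6 PN livers over 24 genes, 6 groups had a liver far from the others. Far means a large gap to the next liver relative to the range of normalized counts, not of their log2 values. The cutoff's chance rate of 1 in 20 assumes normally distributed values and separate groups. The groups of 5 and 6 share livers and the counts are uneven, so no excess over that rate is read. Among the chemokines PN 3 stood apart for CXCL10, at 9028 normalized counts against 3012 in the next of the 5 kept PN livers. The log2 difference of CXCL10 was 2.83 without that liver, with an exact permutation p of 0.0286. PN 2 stood apart for CSF3R, at 113.9 (next 38.9), and for IDO1, at 36.3 (next 10.2). PN 5 stood apart among the 6 PN livers for BLNK, at 360.5 (next 131), and for DES, at 829.6 (next 565). PN 3 stood apart for CPS1, at 48854 (next 24225), close to the bottle-fed livers.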

How the results depend on the processing

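Over 85 alternatives of the 5 chemokine differences, none changed direction, 60 kept their side of the threshold, 22 lost the call and 3 gained it. CXCL8 lost its call only under the replicate block, and CXCL9 also with a pseudocount of 5 (log2 difference 2.69, exact permutation p = 0.0536). CXCL9, CXCL10 and CXCL12 lost theirs when some livers were left out, and CCL19 gained one with edgeR, with or without its filter, and with DESeq2. Fewer livers allow fewer splits, so a p just above 0.05 need not mean a smaller difference. The count of chemokines without overlap between the groups was 4 in all 9 livers and with CPM, and ran from 4 to 5 when each liver was left out, since CCL19 no longer overlapped without bottle-fed 2. No pair of chemokines passed the adjusted test without PN 5 or with CPM either. Among the 19 listed genes with counts per library, all 9 livers, edgeR and DESeq2 were tried after seeing the data: edgeR called all 7 that missed the exact test and DESeq2 called 4 of them. The edgeR and DESeq2 fits differ in normalization as well as in test. Replicate numbers do not pair the piglets: same-numbered livers deviated from their group means with correlations of -0.0270, -0.0453 and -0.0190. With the replicate block over numbers 1, 2 and 3 the log2 differences were 4.14 for CXCL8, 3.65 for CXCL9, 3.63 for CXCL10, -0.99 for CXCL12 and 1.35 for CCL19, each with an exact sign-flip p of 0.25, the smallest that 3 pairs allow. Thresholds on the authors' calls, also planned, were not run because those columns were not used. CXCL8 in bottle-fed livers is limited by its 3 or 4 reads per library.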
